A study of Mus musculus with 24 samples.

Results

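The genes described here carry a cell through G1, the phase in which it either commits to copying its DNA or stays quiescent. They are the 3 D-type cyclins (Ccnd1, Ccnd2 and Ccnd3), their kinases Cdk4 and Cdk6, the Cip/Kip inhibitors Cdkn1a, Cdkn1b and Cdkn1c, the Ink4 inhibitor Cdkn2c, and the transcription factor Myc. They were chosen by symbol: every non-control probe carrying one of these 10 names in the scanner files belongs to the set. The set has 24 probes, of which 23 could be tested, out of 33417 tested probes on the array. Each of the 10 genes had a tested probe, out of 22088 tested genes. The remaining probe, for Cdkn1a, stayed below the background criterion on all arrays.

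Liver RNA of 24 female mice of sv129/C57 background was measured on 1-colour Agilent arrays with 1 array per mouse and 6 mice per group. The KO FB1 mice lacked both LXRα and LXRβ, the oxysterol receptors, and received fumonisin B1 (FB1), a fungal toxin that inhibits ceramide synthases, at 10 mg/kg body weight per day for 1 month. The KO control mice lacked the same receptors and received water. The WT FB1 mice carried both receptors and received the same dose of FB1, and the WT control mice carried both and received water. The labels give an age of 8 weeks without saying whether it is that at the start or the end of treatment. They name no tissue-specific driver of the deletion, and RNA came from liver tissue, so hepatocytes and the other liver cells contribute to each value.

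D-type cyclins bind Cdk4 or Cdk6, and the pairs phosphorylate the retinoblastoma protein, which then releases E2F factors that switch on genes of S phase. Ink4 inhibitors bind the kinases themselves, whereas Cip/Kip inhibitors bind cyclin and kinase together. In adult liver most hepatocytes rest outside the cycle, and cyclin D1 and Myc are known as early rising genes when the liver regenerates.

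Levels are log2 processed signal relative to the 75th percentile of the same array, so 0 is the level of that percentile and a difference of 1 is a doubling. That percentile lay between 490 and 685 signal units, and 58.7% to 64.5% of spots were well above background. Arrays of a group correlated at 0.984 to 0.994 over genes, and the 3 slides each held 2 arrays of every group. The genotype labels held: the Nr1h3 probe (LXRα) lay between -5.12 and -2.56 in KO FB1 and between -5.13 and -3.98 in KO control, against at least 4.71 in all WT arrays. The Nr1h2 probe (LXRβ) lay between 0.31 and 0.80 in KO FB1 and between 0.34 and 0.72 in KO control, against 4.02 to 4.34 in WT arrays. Every probe has its own brightness, so levels are compared between groups and not between genes. Each log2 difference is given ± its standard error in limma, which draws on the spread within groups over all 24 arrays. Adjusted p is limma's p after Benjamini-Hochberg adjustment over all tested genes, and a gene was called at adjusted p under 0.05.

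Probe and promoter sequences show what was read and what precedes some of the genes. Myc was read by 2 probes of 60 bases that do not overlap, both on the forward strand of chromosome 15 (mm9). They are shown because in 2 of the comparisons below only 1 of them was called, although their differences had the same sign. The upper one supplied the gene's value.
Myc probe at chr15:61821417-61821476: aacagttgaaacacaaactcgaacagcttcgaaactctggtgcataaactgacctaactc
Myc probe at chr15:61820925-61820984: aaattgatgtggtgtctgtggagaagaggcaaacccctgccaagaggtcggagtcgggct

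RefSeq promoter sequences (GRCm38.p6) were matched by symbol for 6 of the 10 genes, in 9 windows, and the 250 bases upstream of each start were searched on both strands. The E-box CACGTG, the letters MYC binds best, stood in 6.02% of all 32851 windows. It occurred 4 times upstream of Cdk4 and 1 time upstream of Cdk6, and these windows are shown, with the E-boxes in capitals, because the 2 kinase genes differed under FB1.
Cdk4, forward strand, chr10:127063285-127063534: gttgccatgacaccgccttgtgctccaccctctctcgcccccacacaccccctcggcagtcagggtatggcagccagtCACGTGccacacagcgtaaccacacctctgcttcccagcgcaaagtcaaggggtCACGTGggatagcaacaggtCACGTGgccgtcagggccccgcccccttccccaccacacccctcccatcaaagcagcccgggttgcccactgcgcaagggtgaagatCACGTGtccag
Cdk6, forward strand, chr5:3343643-3343892: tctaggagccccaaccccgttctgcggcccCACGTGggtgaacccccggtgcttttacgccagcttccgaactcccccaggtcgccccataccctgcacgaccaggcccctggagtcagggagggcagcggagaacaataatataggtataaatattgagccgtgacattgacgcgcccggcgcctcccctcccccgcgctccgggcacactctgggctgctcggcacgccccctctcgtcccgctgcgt

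An E2F core, searched as TTCCCGC or else TTGGCGC or else TTCGCGC or else TTGCCGC, stood in 7.89% of all windows. Of the windows of these genes, Cdkn2c had 1, shown in capitals because Cdkn2c was called under FB1 in both genotypes.
Cdkn2c, reverse strand, chr4:109666757-109667006: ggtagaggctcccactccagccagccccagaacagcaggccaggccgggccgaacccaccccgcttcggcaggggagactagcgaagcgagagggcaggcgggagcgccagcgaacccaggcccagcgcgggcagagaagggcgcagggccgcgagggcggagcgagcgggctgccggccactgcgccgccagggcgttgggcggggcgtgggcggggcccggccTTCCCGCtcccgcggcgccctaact
A pair of p53 core motifs, searched as CATG, any 6 bases and CATG again, stood in 0.49% of all windows and in 1 of the Cdkn1a windows, shown, with the pair and the bases between in capitals, because Cdkn1a is a textbook target of p53.
Cdkn1a, forward strand, chr17:29090729-29090978: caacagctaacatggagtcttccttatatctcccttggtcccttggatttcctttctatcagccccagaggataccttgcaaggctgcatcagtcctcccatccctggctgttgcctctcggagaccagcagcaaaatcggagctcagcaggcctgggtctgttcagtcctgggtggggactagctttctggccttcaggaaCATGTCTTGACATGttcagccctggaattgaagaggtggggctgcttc
The direct repeat bound by LXR, searched as AGGTCA repeated after any 4 bases, stood in 0.0152% of all windows and in 0 of the 9 windows of these genes. A match is a run of letters and not a measured binding site, and binding was not measured in this study.

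In LXR-deficient livers FB1 raised cyclin D1, cyclin D2, Cdk6, Cdkn2c and Myc and lowered cyclin D3 and Cdkn1c. In wild-type livers it raised cyclin D1 and Cdkn2c. The falls of cyclin D3 and Cdkn1c were not called in every setting, as given below. Of the 10 genes, 5 rose and 2 fell under FB1 in KO, where 41.2% of all tested genes were called, 16.5% higher and 24.6% lower. In WT 2 rose and none fell, where 2.89% of all tested genes were called, 2.06% higher and 0.824% lower. The median log2 difference of the 10 genes was 0.27 in KO and -0.01 in WT, beside -0.08 and -0.03 over all genes. Between genotypes without FB1, limma called 0 of the 10, where 15.2% of all genes were called (7.21% higher and 8.02% lower), and 2 of the 10 had an unadjusted p under 0.05. With FB1 the KO livers had 4 of the 10 higher and 1 lower than WT livers, where 32.8% of all genes were called, 14.5% higher and 18.3% lower. The FB1 effect itself was larger in KO than in WT for 2 of the 10, where 9.3% of all genes were called, 4.46% higher and 4.84% lower.

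**Figure D1:**
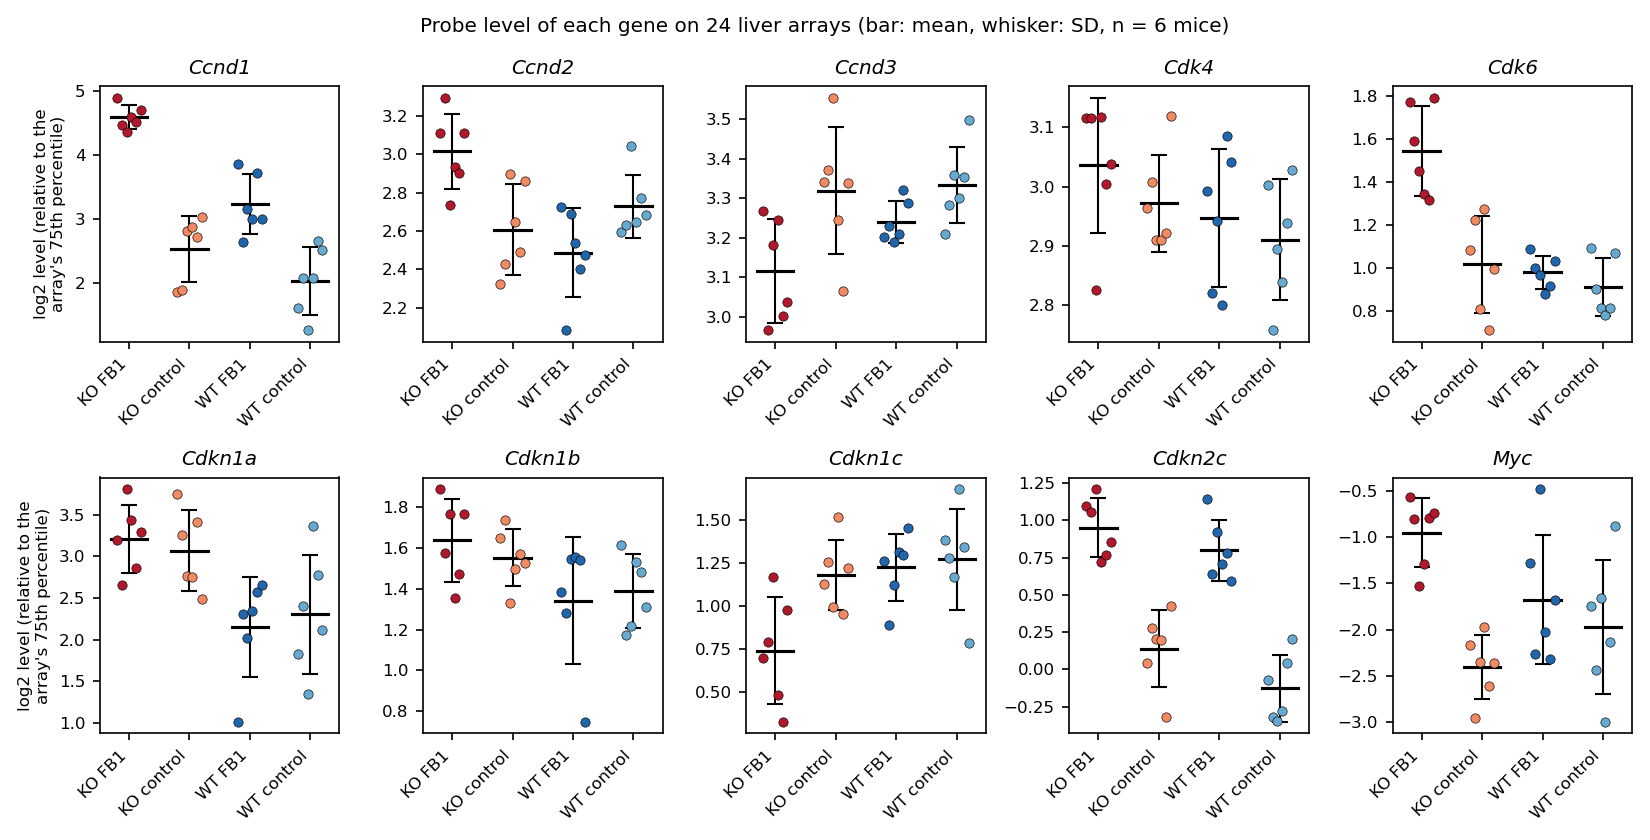
Level of each of the 10 genes on the 24 arrays (y axis: log2 signal relative to the 75th percentile of the array), with 1 point per mouse, a bar for the group mean and a whisker for the SD over 6 mice. The KO FB1 points lie above all KO control points for Ccnd1, Cdk6, Cdkn2c and Myc, and the WT FB1 points lie above all WT control points for Cdkn2c.

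**Figure D2:**
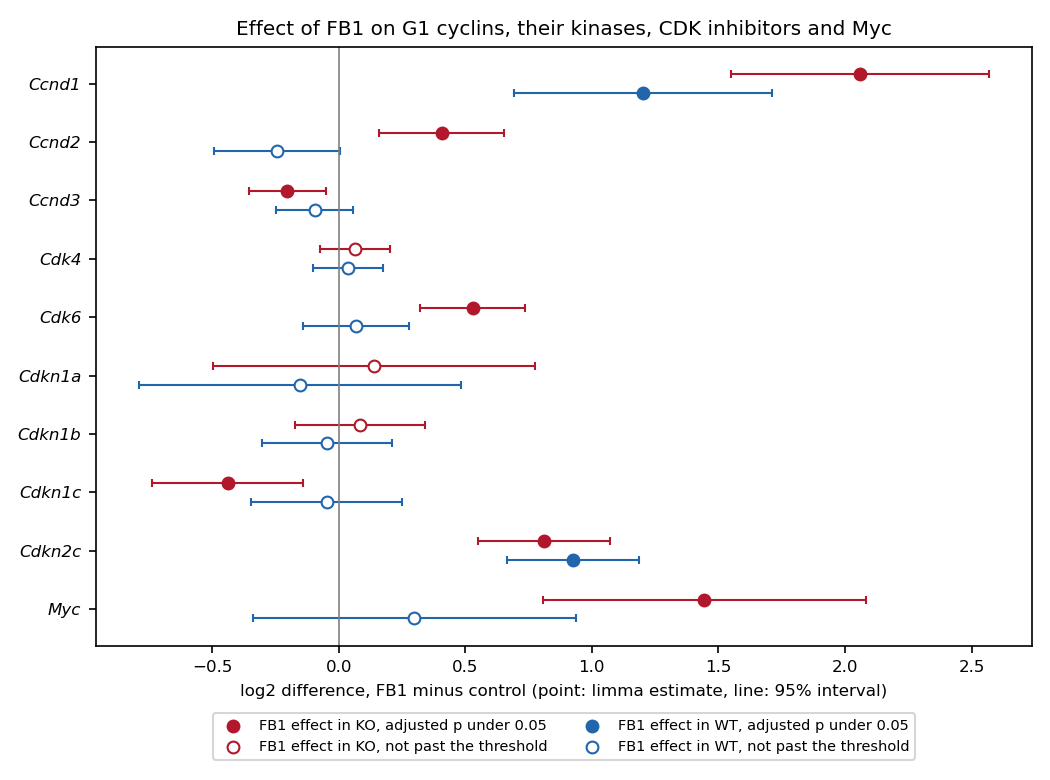
Log2 difference between FB1 and control mice of the same genotype (x axis) with its 95% interval, for KO and WT. Filled points passed adjusted p under 0.05: 7 genes in KO and 2 in WT.

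Ccnd1, which encodes cyclin D1, had the largest differences of the 10 genes under FB1 in each genotype. It was read by 1 probe, on chromosome 7 at 152116202 to 152116261 (mm9). In KO FB1 livers its lowest, median and highest levels were 4.36, 4.55 and 4.89, against 1.86, 2.76 and 3.02 in KO control livers. The 2 groups did not overlap, and the lowest KO FB1 mouse lay above the highest KO control mouse by more than the range of the KO FB1 group. The difference was 2.06 ± 0.25, a 4.17-fold rise (adjusted p = 1.39e-06), and on the 3 slides taken alone it was 1.73, 2.04 and 2.42.

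In WT FB1 livers Ccnd1 had 2.63, 3.07 and 3.86, against 1.25, 2.07 and 2.64 in WT control livers. These groups overlapped by 1 pair of mice, the lowest treated and the highest untreated. The difference was 1.20 ± 0.25, a 2.30-fold rise (adjusted p = 0.00632), and it was 1.08, 1.58 and 0.94 on the 3 slides. By median the groups ran, from the top, KO FB1, WT FB1, KO control and WT control. KO FB1 stood apart from WT FB1 (1.36 ± 0.25, adjusted p = 0.00016) without overlap. KO control was not called against WT control (0.50 ± 0.25, adjusted p = 0.194, 95% interval -0.01 to 1.01), and WT FB1 and KO control overlapped.

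Ccnd2 encodes cyclin D2, which can pair with the same kinases. Its used probe lies on chromosome 6 at 127080268 to 127080327 (mm9). KO FB1 livers had 2.74, 3.02 and 3.30, against 2.32, 2.57 and 2.90 in KO control livers. WT FB1 livers had 2.08, 2.51 and 2.72, against 2.59, 2.67 and 3.04 in WT control livers. The KO groups overlapped with the treated mice higher, and the WT groups overlapped with the treated mice lower. In KO the rise was 0.41 ± 0.12 or 1.33-fold (adjusted p = 0.00893). In WT the difference of -0.24 ± 0.12 was not called (adjusted p = 0.285, 95% interval -0.49 to 0.00).

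All 3 Ccnd2 probes, which share no bases, were called higher under FB1 in KO, with differences of 0.35 to 0.51. In WT their differences were -0.28 to -0.17 and none was called. On single slides the used probe gave 0.40, 0.24 and 0.57 in KO and -0.16, -0.44 and -0.13 in WT.

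Ccnd3, which encodes cyclin D3, moved less. Its used probe lies on chromosome 17 at 47736579 to 47736638 (mm9). In KO FB1 livers the levels were 2.97, 3.11 and 3.27, against 3.06, 3.34 and 3.56 in KO control livers, and the groups overlapped. The fall of 0.20 ± 0.07, written as a difference of -0.20 (1.15-fold lower, adjusted p = 0.0305), did not hold in every setting: the call was lost under quantile normalisation (-0.08, adjusted p = 0.404), in the authors' values (-0.07, adjusted p = 0.499) and without any 1 of 6 single mice. A probe sharing 53 bases with it gave -0.11 ± 0.10 and the other probe -0.02 ± 0.10, and neither was called. In WT the difference was -0.10 ± 0.07 (adjusted p = 0.519, 95% interval -0.25 to 0.06).

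The kinases behaved unequally. For Cdk6 the used probe lies on chromosome 5 at 3529287 to 3529346 (mm9), and KO FB1 livers had 1.32, 1.52 and 1.79, against 0.71, 1.04 and 1.27 in KO control livers. In WT FB1 livers they were 0.88, 0.98 and 1.09, against 0.78, 0.86 and 1.09 in WT control livers. All 6 KO FB1 mice lay above every other mouse of the study, while the other 3 groups overlapped one another. The rise in KO was 0.53 ± 0.10 or 1.44-fold (adjusted p = 0.000237), and 0.70, 0.36 and 0.53 on single slides. In WT the difference was 0.07 ± 0.10 (adjusted p = 0.763, 95% interval -0.14 to 0.28). A further Cdk6 probe rose by 0.64 ± 0.10 in KO, and the last gave 0.31 ± 0.15 and was not called.

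For Cdk4 the used probe lies on chromosome 10 at 126504279 to 126504338 (mm9). KO FB1 livers had 2.83, 3.08 and 3.12, against 2.91, 2.94 and 3.12 in KO control livers. WT FB1 livers had 2.80, 2.97 and 3.08, against 2.76, 2.92 and 3.03 in WT control livers. All 4 groups overlapped. The differences under FB1 were 0.06 ± 0.07 in KO (adjusted p = 0.473, 95% interval -0.08 to 0.20) and 0.04 ± 0.07 in WT (adjusted p = 0.819, 95% interval -0.10 to 0.18). Of its 4 probes, 1 was called higher under FB1 in KO (0.24 ± 0.07, adjusted p = 0.00965 over probes), although it shares 53 bases with the used probe. The used probe itself was called in KO after quantile normalisation (0.19, adjusted p = 0.042) and in the authors' values (0.20, adjusted p = 0.032). Whether the E-boxes printed above bear on the levels of Cdk4 or Cdk6 was not tested.

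**Figure D3:**
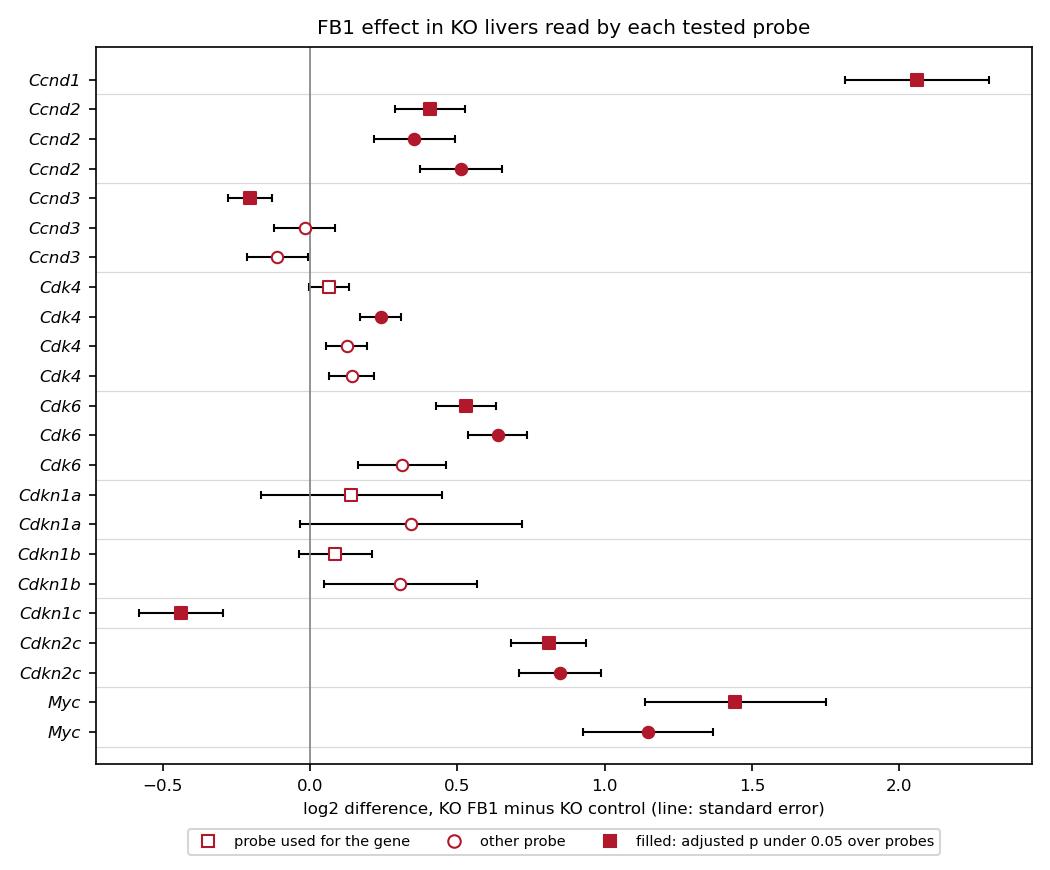
Log2 difference between KO FB1 and KO control livers (x axis, line: standard error) for each of the 23 tested probes. Squares are the probes used for the gene, circles the others, and filled symbols passed adjusted p under 0.05 over all probes. The tested probes of each gene agree in direction. All those of Ccnd2, Cdkn2c and Myc were called, whereas those of Ccnd3, Cdk4 and Cdk6 are split between called and not called.

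Among the Cip/Kip inhibitors, Cdkn1a, which arrests the cycle downstream of p53, varied most between mice of a group. Its used probe lies on chromosome 17 at 29237377 to 29237436 (mm9). In KO FB1 livers the levels were 2.66, 3.25 and 3.81, against 2.49, 3.01 and 3.75 in KO control livers. In WT FB1 livers they were 1.01, 2.32 and 2.65, against 1.34, 2.26 and 3.36 in WT control livers. Treated and untreated mice of a genotype overlapped almost wholly, with an SD of 0.41 to 0.71 in the 4 groups. FB1 gave 0.14 ± 0.31 in KO (adjusted p = 0.747, 95% interval -0.50 to 0.78) and -0.15 ± 0.31 in WT (adjusted p = 0.834, 95% interval -0.79 to 0.48).

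Genotype was where Cdkn1a differed. With FB1 the KO livers were 2.08-fold above the WT livers (1.06 ± 0.31, adjusted p = 0.0106), and the lowest KO FB1 mouse (2.66) lay just above the highest WT FB1 mouse (2.65). On single slides this difference was 0.46, 1.97 and 0.75. Without FB1 the difference was 0.77 ± 0.31 and was not called (adjusted p = 0.103, 95% interval 0.13 to 1.40). It was called without WT control replicate 4, the highest mouse of its group (0.98, adjusted p = 0.026). The second tested probe, on chromosome 17 at 29235299 to 29235358, gave 0.51 ± 0.38 with FB1 and -0.37 ± 0.38 without, and neither was called.

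Cdkn1b, the inhibitor that accumulates in resting cells, was called in none of the comparisons by either of its probes. Its used probe lies on chromosome 6 at 134875424 to 134875483 (mm9). KO FB1 livers had 1.35, 1.67 and 1.89, against 1.33, 1.55 and 1.74 in KO control livers. WT FB1 livers had 0.75, 1.46 and 1.55, against 1.18, 1.40 and 1.61 in WT control livers. The groups overlapped, and WT FB1 replicate 6 lay well below the other 5 of its group. FB1 gave 0.09 ± 0.12 in KO (95% interval -0.17 to 0.34) and -0.05 ± 0.12 in WT (95% interval -0.30 to 0.21). KO against WT with FB1 came nearest to a call, at 0.29 ± 0.12 (adjusted p = 0.0715).

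Cdkn1c, an imprinted gene whose product is the remaining Cip/Kip inhibitor, was the inhibitor that fell. It was read by 1 probe, on chromosome 7 at 150644297 to 150644356 (mm9). In KO FB1 livers the levels were 0.33, 0.74 and 1.17, against 0.95, 1.17 and 1.52 in KO control livers. In WT FB1 livers they were 0.89, 1.28 and 1.45, against 0.78, 1.31 and 1.68 in WT control livers. KO FB1 reached lower than any other group but overlapped each of them. The fall in KO was a difference of -0.44 ± 0.14 or 1.36-fold lower (adjusted p = 0.0179), with -0.42, -0.35 and -0.55 on single slides, and it was no longer called without KO FB1 replicate 5 (-0.36, adjusted p = 0.0509). In WT the difference was -0.05 ± 0.14 (adjusted p = 0.897, 95% interval -0.35 to 0.25).

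Cdkn2c, the Ink4 inhibitor of Cdk4 and Cdk6, rose to similar levels under FB1 in both genotypes. Its used probe lies on chromosome 4 at 109333779 to 109333838 (mm9). KO FB1 livers had 0.72, 0.95 and 1.21, against -0.32, 0.20 and 0.43 in KO control livers. WT FB1 livers had 0.59, 0.75 and 1.15, against -0.34, -0.17 and 0.21 in WT control livers. In each genotype every treated mouse lay above every untreated mouse. The rises were 0.81 ± 0.13 or 1.75-fold in KO (adjusted p = 2.92e-05) and 0.93 ± 0.13 or 1.90-fold in WT (adjusted p = 0.000381).

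Cdkn2c was the 1 gene of the 10 whose WT groups did not overlap, where 2.33% of all genes did not overlap. In KO it was 1 of 4, with Ccnd1, Cdk6 and Myc, where 18.4% of all genes did not overlap. Its second probe, which shares 40 bases, rose by 0.85 ± 0.14 in KO and 0.99 ± 0.14 in WT. On single slides the used probe gave 0.97, 0.73 and 0.73 in KO and 0.99, 1.21 and 0.58 in WT. The difference between the 2 FB1 effects was -0.12 ± 0.18 (adjusted p = 0.74, 95% interval -0.49 to 0.25). The E2F core printed above stands in 1 Cdkn2c window, while the Cdkn2c window at chr4:109665373-109665622 has 0. E2f1, which encodes an E2F factor, was called higher in the same 2 comparisons, as were all 14 mitosis genes described below. Whether an E2F factor acts on Cdkn2c was not tested.

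Myc was dim but well above background on all 24 arrays with both probes. In KO FB1 livers the levels were -1.52, -0.80 and -0.57, against -2.95, -2.35 and -1.97 in KO control livers. In WT FB1 livers they were -2.32, -1.85 and -0.49, against -2.99, -1.94 and -0.88 in WT control livers. The KO groups did not overlap and the WT groups overlapped almost wholly, with an SD of 0.70 in WT FB1 and 0.72 in WT control. In KO the rise was 1.44 ± 0.31 or 2.72-fold (adjusted p = 0.000716), and 1.67, 0.85 and 1.81 on single slides. In WT the difference was 0.30 ± 0.31 (adjusted p = 0.644, 95% interval -0.34 to 0.94), and it was 0.88, 0.55 and -0.53 on single slides.

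By median Myc ran KO FB1, WT FB1, WT control and KO control. Its second probe rose by 1.15 ± 0.22 under FB1 in KO and gave 0.11 ± 0.22 in WT. KO against WT with FB1 was 0.72 ± 0.31 with the used probe (adjusted p = 0.0767) and 0.58 ± 0.22 with the second (adjusted p = 0.0482 over probes), so that only the second was called. WT FB1 replicate 3 was the highest mouse of its group, and without it the used probe was called as well (0.96, adjusted p = 0.0132). Without KO FB1 replicate 3, the lowest of its group, it was also called (0.83, adjusted p = 0.0467).

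Between genotypes under FB1, cyclin D1, cyclin D2, Cdk6 and Cdkn1a were higher and Cdkn1c was lower in KO livers. The first 4 had groups that did not overlap, where 15.2% of all genes did not overlap. The differences were 1.36 ± 0.25 for Ccnd1 (2.57-fold), 0.53 ± 0.12 for Ccnd2 (1.44-fold, adjusted p = 0.00149) and 0.57 ± 0.10 for Cdk6 (1.48-fold, adjusted p = 0.000134). Cdkn1c differed by -0.48 ± 0.14 (1.40-fold lower, adjusted p = 0.0123). These comparisons share arrays with those of FB1 within a genotype, so their values stand side by side and do not support each other. All 3 Ccnd2 probes and 2 of the 3 Cdk6 probes were called here.

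Without FB1 limma called none of the 10 genes between genotypes, and the groups of 0 of the 10 did not overlap, where 7.93% of all genes did not overlap. The lowest unadjusted p values were 0.0207 for Cdkn1a and 0.0449 for Cdkn2c (0.27 ± 0.13, adjusted p = 0.174). The median difference was 0.08, beside 0.01 over all genes. Cdkn2c was called without KO control replicate 5 (0.36, adjusted p = 0.0461).

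Whether FB1 acted differently in the genotypes was tested as the difference of the FB1 effects, KO minus WT. Ccnd2 (0.65 ± 0.17, adjusted p = 0.018) and Cdk6 (0.46 ± 0.14, adjusted p = 0.0427) passed. For Ccnd2 the 2 estimates had opposite signs, 0.41 in KO and -0.24 in WT, but the one in WT was not called (adjusted p = 0.285). The difference of effects was called with each of the 3 Ccnd2 probes. It was 0.56, 0.68 and 0.71 on single slides. For Cdk6 the difference was 0.61, 0.11 and 0.66 on single slides, and the call did not hold with the mean of its probes (0.32, adjusted p = 0.142) or without any 1 of 15 single mice.

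For Myc the difference of effects was larger but had a wider error, 1.15 ± 0.44 (adjusted p = 0.0987, 95% interval 0.24 to 2.05). The second Myc probe passed (1.03 ± 0.31, adjusted p = 0.0431 over probes), and the used probe passed without WT control replicate 4 (1.35, adjusted p = 0.0353) or WT FB1 replicate 3 (1.38, adjusted p = 0.0323). For Ccnd1 it was 0.86 ± 0.35 (adjusted p = 0.123, 95% interval 0.14 to 1.58). The remaining genes had differences of -0.39 for Cdkn1c to 0.29 for Cdkn1a, and none was called.

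The other genes of the G1/S network, 36 of 37 listed symbols, were read for the steps before and after the D cyclins. Ccne2 was not tested, being well above background on 1 array. Under FB1 in KO 12 rose and 6 fell, and under FB1 in WT 4 rose and none fell. That is 50% of the list in KO and 11.1% in WT, where 41.2% and 2.89% of all genes were called. The median difference of the 36 genes was 0.01 in KO and 0.04 in WT, beside -0.08 and -0.03 over all genes.

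Downstream of the D cyclins, Ccne1, which encodes cyclin E1, rose by 2.08 ± 0.26 in KO (adjusted p = 2.24e-06) and by 1.54 ± 0.26 in WT (adjusted p = 0.00124). E2f1 rose by 1.40 ± 0.15 in KO (adjusted p = 3.96e-07) and by 0.98 ± 0.15 in WT (adjusted p = 0.000682). Mxd3, a MAX partner of the MAD family that peaks in cycling cells, rose by 2.72 ± 0.50 in KO and 2.38 ± 0.50 in WT. Its probe was well above background on all 6 FB1 mice of each genotype but on 3 KO control and 1 WT control mice, so its control levels are poorly measured. Only the FB1 groups met the background criterion that let Mxd3 be tested, so its calls depend on the groups where it is high. Cdkn2d, a further Ink4 inhibitor and the fourth WT call (0.65 ± 0.17, adjusted p = 0.0341), is named after its values were seen.

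The genes of the network that fell most under FB1 in KO were Fbxo31, a ubiquitin ligase subunit that targets cyclin D1 (-1.21 ± 0.32, adjusted p = 0.00445), Rbl2, a pocket protein of quiescent cells (-0.67 ± 0.16, adjusted p = 0.00258), and Tfdp2, a dimer partner of E2F factors (-0.46 ± 0.12, adjusted p = 0.0031). The FB1 effect differed between genotypes for Cdc25a, a phosphatase that activates CDKs (0.72 ± 0.20, adjusted p = 0.027), and for Tfdp2 (-0.66 ± 0.17, adjusted p = 0.0152). Those were 2 of 36, or 5.56%, where 9.3% of all genes were called.

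Between genotypes without FB1 the network had 5 genes higher and 1 lower in KO, or 16.7%, near the 15.2% called over all genes. Cdkn2a, which encodes an Ink4 inhibitor and the p53 regulator ARF, was measured above background on all 6 KO control mice and on 0 of the WT control mice. Only the KO groups met the background criterion that let Cdkn2a be tested, so its call depends on the groups where it is high and is not support. Its level in KO control was at least 3.25-fold higher. This bound divides the KO control mean by a WT control mean in which every mouse counts with whichever is larger, its Cdkn2a signal or the dimmest signal that passed the background criterion on its array. Mycn, a paralogue of Myc, was higher by 1.58 ± 0.33 and Skp2, which marks Cdkn1b for degradation, by 0.73 ± 0.15. E2f8, a repressor among E2F factors, was lower by 0.81 ± 0.25 (difference -0.81, adjusted p = 0.0315).

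With FB1 8 were higher and 2 lower in KO than in WT livers, or 27.8%, where 32.8% of all genes were called. The Ink4 gene Cdkn2b (0.998 ± 0.30, adjusted p = 0.0129) and Ccne1 (0.99 ± 0.26, adjusted p = 0.00481) were among those higher. Cdkn2a was called too (1.97 ± 0.36), but only 2 of 6 WT FB1 mice were above background, so the size of its difference is poorly measured. This call also depends on the KO groups having met the background criterion. Rbl2 (-0.79 ± 0.16) and the repressor E2f6 (-0.30 ± 0.09) were lower.

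**Figure D4:**
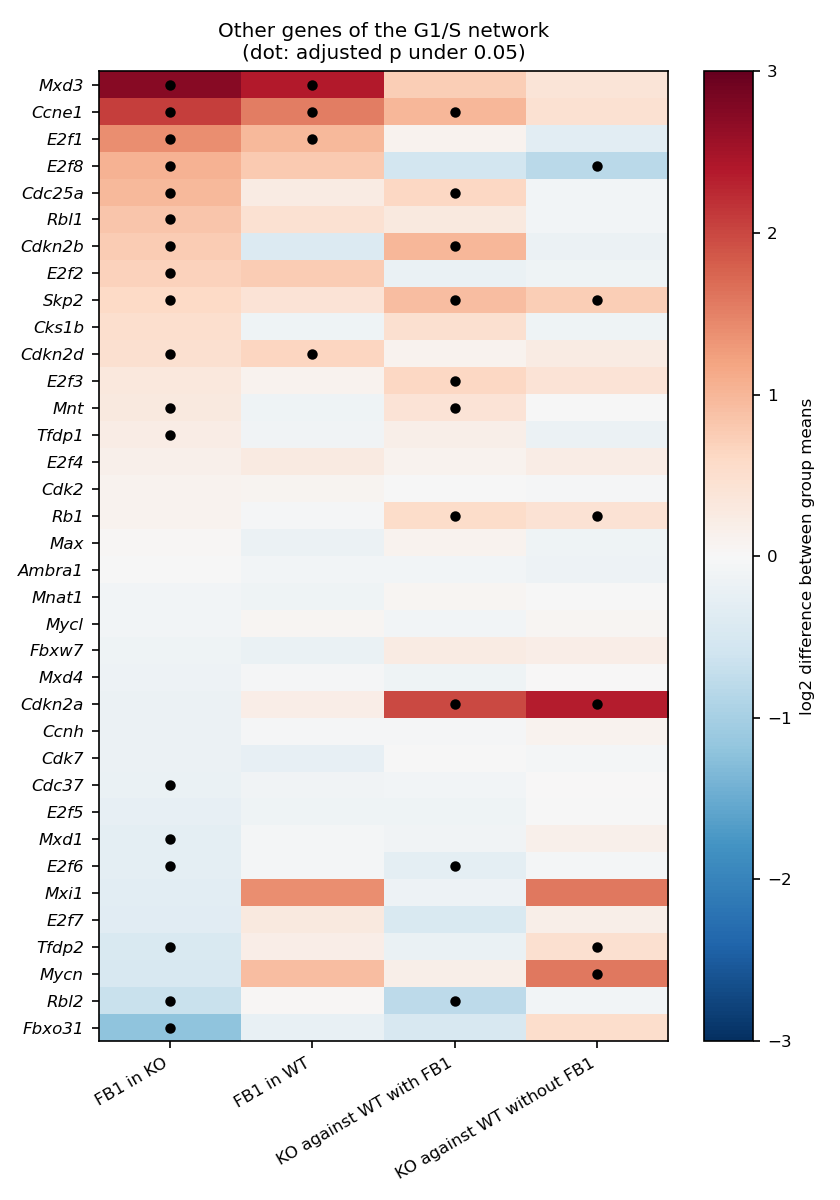
Log2 differences (colour) of the 36 tested genes of the G1/S network around the 10 described genes, sorted by the difference under FB1 in KO, in 4 comparisons (columns), with a dot where adjusted p was under 0.05. Mxd3, Ccne1, E2f1 and Cdkn2d carry dots under FB1 in both genotypes. Cdkn2a, Skp2 and Rb1, which encodes the retinoblastoma protein, carry dots in both comparisons of genotypes. Mxd3 met the background criterion only in the FB1 groups and Cdkn2a only in the KO groups.

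The phases after G1 were read from separate lists. All 14 tested mitosis genes rose under FB1 in each genotype, with a median of 2.61 in KO and 2.22 in WT. A gene of these lists could be tested through the FB1 groups alone. Bub1, 1 of the 14, was well above background on all 6 FB1 mice of each genotype, but on 5 KO control and 3 WT control mice. Its calls may thus depend on the groups where it is high and are not support. Cdc20, which switches on the ligase that drives anaphase, rose by 3.92 ± 0.49 in KO and 3.25 ± 0.49 in WT, and Ccnb1, which encodes cyclin B1, by 3.36 ± 0.45 and 3.06 ± 0.45 in the same order. Of 14 S phase genes, 12 rose and 1 fell in KO and 7 rose in WT, with medians of 0.93 and 0.54. These calls were 92.9% of the S phase list in KO and 50% in WT, and 100% of the mitosis list in each. Of all genes, 41.2% were called in KO (16.5% higher) and 2.89% in WT (2.06% higher). Mcm6, a subunit of the replicative helicase, rose by 1.62 ± 0.35 in KO and 1.79 ± 0.35 in WT. The gene that fell was Tk1, thymidine kinase (-1.01 ± 0.19 in KO, adjusted p = 0.000173). The FB1 effect differed between genotypes for 1 S phase gene, Tk1 (-1.32 ± 0.26, adjusted p = 0.00389), or 7.14%, where 9.3% of all genes were called. This difference of effects was called for none of the mitosis genes, of which 0 had an unadjusted p under 0.05.

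Of 14 known target genes of MYC, 2 rose and 2 fell under FB1 in KO, and 1 fell in WT, with medians of 0.07 and -0.16. These calls are 28.6% and 7.14% of the list, where 41.2% and 2.89% of all genes were called, and 8 of the 14 had an unadjusted p under 0.05 in KO. With FB1, 5 of the 14 (35.7%, where 32.8% of all genes were called) were higher in KO than in WT livers, among them Srm (0.64 ± 0.14) and Cad (0.54 ± 0.16). Cad, an enzyme of pyrimidine synthesis (0.50 ± 0.16), and Nop56, a nucleolar protein (0.41 ± 0.16), rose in KO. Hspd1, a mitochondrial chaperone (-0.30 ± 0.07), and Odc1, the first enzyme of polyamine synthesis (-0.28 ± 0.11), fell in KO, and Bop1 fell in WT (-0.29 ± 0.07). The FB1 effect was higher in KO for 3 of the 14 (21.4%, where 9.3% of all genes were called). Among them were Cad (0.71 ± 0.22, adjusted p = 0.0489) and Srm, spermidine synthase (0.64 ± 0.20, adjusted p = 0.0426).

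Other targets of p53, beside which Cdkn1a is usually read, gave 7 higher and 1 lower of 14 under FB1 in KO and 2 higher in WT. That is 57.1% and 14.3% of the list, where 41.2% and 2.89% of all genes were called. With FB1, the comparison of genotypes in which Cdkn1a was called, 7 of the 14 were higher in KO than in WT livers (50%, where 32.8% of all genes were called). Phlda3, an inhibitor of AKT signalling, rose by 1.77 ± 0.18 in KO and 0.94 ± 0.18 in WT, and Tnfrsf10b, a death receptor, by 1.24 ± 0.22 and 0.92 ± 0.22 in the same order. Sesn1, a sestrin, fell in KO (-0.39 ± 0.11). Without FB1, 2 of the 14 were higher in KO than in WT livers (14.3%, where 15.2% of all genes were called). They were Tnfrsf10b (2.04 ± 0.22) and Pmaip1, a BH3-only protein (0.57 ± 0.15). Cdkn1a itself was called in neither FB1 comparison.

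Growth factor and immediate early genes, which lie upstream of Ccnd1 and Myc, gave 4 rises and 1 fall of 14 under FB1 in KO, or 35.7%, where 41.2% of all genes were called. With FB1, 7 were higher and 1 lower in KO than in WT livers (57.1%, where 32.8% of all genes were called). Under FB1 in WT limma called 0 of the 14, of which 2 had an unadjusted p under 0.05, where 2.89% of all genes were called. Atf3, a stress transcription factor, rose by 2.06 ± 0.43 and Egr1, an immediate early factor, by 1.81 ± 0.40, while Met, the receptor of hepatocyte growth factor, fell (-0.40 ± 0.09). The FB1 effect differed between genotypes for 1 of the 14 (7.14%, where 9.3% of all genes were called). It was larger in KO for this gene, Jun (1.79 ± 0.51, adjusted p = 0.0279), a subunit of AP-1.

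Markers of other liver cells moved in the same comparisons. In whole-liver RNA, a change in the number of cells of a type and a change in RNA per cell cannot be told apart. Under FB1 in KO, 8 of 10 markers of recruited monocytes and macrophages rose, 7 of 10 of stellate cells and fibroblasts, and 5 of 5 tested of B and plasma cells. In the same comparison 6 of 10 hepatocyte markers and 5 of 8 of sinusoidal endothelium fell. Of all genes, 16.5% were called higher and 24.6% lower there. In WT, 5 of 10 markers of recruited monocytes and macrophages and 4 of 10 of stellate cells rose, and no hepatocyte or endothelial marker was called (3 of each list had an unadjusted p under 0.05). Of all genes, 2.06% were called higher and 0.824% lower in WT.

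The summed linear levels of the stellate list were 128 to 157 in KO FB1, 88.1 to 107 in KO control, 90.7 to 112 in WT FB1 and 72.4 to 93.4 in WT control, with Dcn supplying 71.6% of the sum. Those of the recruited list were 31.5 to 43.5, 15.5 to 24.6, 39.2 to 65.5 and 39.6 to 86.5 in the same order of groups, with Ly6c2 supplying 60.6%. Marker by marker, 6 of these 10 were higher and 1 lower in KO than in WT livers with FB1 (median 2.05). Without FB1, 6 were higher and 3 lower in KO (median 1.13). Of all genes, 32.8% and 15.2% were called in those 2 comparisons. For B and plasma cells the sums were 2.98 to 5.58, 1.47 to 2.47, 2.21 to 3.64 and 1.28 to 2.75, with Jchain supplying 53.6%. Hepatocyte sums were 2376 to 3534, 3086 to 3669, 3197 to 3547 and 3146 to 3551, and endothelial sums 26.1 to 37.2, 40.5 to 61.0, 34.4 to 65.1 and 52.5 to 71.6. KO FB1 thus stood above KO control without overlap for the stellate, recruited and B cell lists and below it without overlap for the endothelial list. The part of these cells in the rises of Ccnd1, Ccnd2, Cdk6 and Myc was not tested.

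Of 8 markers of resident macrophages 1 rose and 2 fell in KO, or 37.5%, where 41.2% of all genes were called. All 8 were lower in KO control than in WT control livers, where 8.02% of all genes were called lower. The sums were 12.2 to 20.4 in KO FB1, 10.4 to 17.8 in KO control, 101 to 142 in WT FB1 and 51.7 to 159 in WT control. Of 6 tested cholangiocyte markers 1 rose in KO (16.7%, where 16.5% of all genes were called higher). Cldn4 was not tested because its probe was above background on 5 arrays. That list shares Spp1 with the recruited list, and Spp1 supplied 84.1% of its sum, which was 5.55 to 10.4, 5.23 to 7.19, 4.19 to 6.47 and 4.31 to 7.10 in the same order of groups. Of 8 neutrophil markers 1 rose in each genotype (12.5%), where 16.5% of all genes were called higher in KO and 2.06% in WT. The median difference of the 8 was 0.87 in KO and 1.51 in WT, and 2 in KO and 7 in WT had an unadjusted p under 0.05. With FB1, 7 of the 8 were lower in KO than in WT livers, where 18.3% of all genes were called lower. The neutrophil sums in the same order of groups were 4.84 to 8.67, 2.92 to 6.50, 8.89 to 40.7 and 2.76 to 16.9, with S100a9 supplying 58.5%. Limma called 0 of 6 tested T and NK cell markers in either FB1 comparison, where 41.2% (KO) and 2.89% (WT) of all genes were called. An unadjusted p under 0.05 was seen for 1 of these markers in KO and 0 in WT. Their sums were 17.1 to 28.0, 14.6 to 28.3, 15.2 to 34.0 and 18.0 to 31.9, with Cd4 supplying 87.6%. Of 6 tested erythroid markers 1 fell in KO (16.7%, where 24.6% of all genes were called lower). The erythroid sums were 232 to 430, 294 to 446, 258 to 480 and 126 to 515. Hba-a1 supplied 79.1% of the erythroid sum, and Epb42 was above background on 0 arrays.

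Over the 24 arrays, each centred on the WT control mean, the genes outside the set closest to Ccnd1 were Grhl1, a grainyhead-like transcription factor, and Phlda3. Their root mean square differences from Ccnd1 were 0.38 and 0.42 log2 units. Grhl1 averaged 2.86, 0.73 and 1.05 above WT control in KO FB1, KO control and WT FB1 livers, where Ccnd1 averaged 2.56, 0.50 and 1.20. Closest to Myc were Cd300lb, a receptor of myeloid cells, at 0.29 and Evl, an actin regulator of the Ena/VASP family, at 0.32. Cd300lb averaged 0.96, -0.50 and 0.28 relative to WT control in those groups, where Myc averaged 1.02, -0.43 and 0.30.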

How the data were processed

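Per the labels' protocols, total RNA was isolated with TriZol, converted to Cy3-labelled cRNA and put on 1 array per mouse. Per the file headers, the deposited scanner files hold spot intensity, and the processed signal had been background-subtracted and spatially detrended by Agilent Feature Extraction 10.10.1.1, without normalisation between arrays. The authors also deposited log2 values of 33417 probes, used as an alternative; the probes tested here are equally many, and 32012 are in both. The 24 columns each matched their own array best, with medians of 7.858 to 7.863, so genes were not centred; their filter and normalisation are not stated in what was used here. The submitters' processing notes name limma.

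Values were log2 processed signal minus the array's 75th percentile over 59305 non-control spots. Outlier spots, 64 to 121 per array, were set to missing, 0 spots were saturated, and replicate spots were averaged. Testing required a probe to pass Agilent's well-above-background flag on all unmarked arrays of 1 group or more, and to have at least 4 values per group. A gene was its tested probe of highest mean, named by RefSeq accession (GRCm38.p6) for 32994 of 56605 probes and by the file otherwise. Probe coordinates are those of the files (mm9), and whether a probe lies in a coding or untranslated part was not analysed here. The 4 group means were fitted together with limma 3.58.1 in R 4.3.3 (with data.table, version 1.17.8), without covariates, and the fit was tested on simulated data. Values of single probes come from the same fit over 33417 probes. Figures used Python 3.11.15 and matplotlib 3.10.9.

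Named genes were the 10 genes, Nr1h3 and Nr1h2, the 3 largest called changes per direction and comparison in the G1/S list and the 2 largest in each other pathway list, though not every one is named, and the 2 genes most like each of the 10 that changed by at least 1 log2 unit under FB1 in KO. The genes and lists were chosen with earlier results of these data known. Mice are the replicates, and the number of arrays limits the precision. Alternatives were quantile normalisation, the authors' values, normexp (offset 50), 2 other filters on dim probes, averaging all probes of a gene, keeping outlier spots, a block for slide or for replicate number, slides alone, the compared groups alone, an intensity trend, and leaving out each array. An item withheld from this text is not reported here.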

Additional observations from a re-analysis of the deposited data

Results flagged for a closer look

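Of 40 sets of 6 mice examined, 1 for each of the 10 genes in each group, 1 had a mouse far from the others by Dixon's test at the 95% level, and chance gives about 1 in 20. It was Cdkn1b in WT FB1 replicate 6, at 0.75, where the next lowest mouse of the group had 1.28. The difference of the FB1 effects, KO minus WT, passed the test for Ccnd2 (0.65), Cdk6 (0.46), Cdc25a (0.72) and Tfdp2 (-0.66).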

How the results depend on the processing

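Of the 5 comparisons over the 10 genes, 16 results were called and 34 were not. Under 35 settings other than single slides, 558 recomputed values of called results gave 527 calls in the same direction, 31 lost calls and 0 reversals; of 1182 values of uncalled results, 10 became calls and 13 had the other sign. The 31 lost calls were those of Ccnd3 and Cdkn1c under FB1 in KO and of Cdk6 in the difference of effects. Ccnd3 was also lost with no filter on dim probes (adjusted p = 0.0631), with the mean of its probes (0.235) and with the compared groups alone (0.0876). For the difference of effects, 1 in place of 2 genes was called with normexp, the authors' values, no filter and the mean of probes, because Cdk6 had an adjusted p of 0.0521, 0.0772, 0.088 and 0.142 there. All-gene calls fell to 381 with the compared groups alone (FB1 in WT) and to 1258 with no filter (difference of effects). Of the calls in the difference of effects, 47.9% were higher, against 58.7% in the authors' values. Leaving out single mice gave 2 to 2 of the 10 genes for FB1 in WT (386 to 839 of all genes, against 638, and lowest without WT FB1 replicate 1), 5 to 7 for FB1 in KO (7976 to 9794), 0 to 1 for KO against WT without FB1 (2828 to 3538), 5 to 6 with FB1 (6191 to 7854) and 1 to 3 for the difference of effects (1490 to 3038). Slides 1, 2 and 3 alone, with 2 mice per group, called 0, 0 and 0 of the 10 genes for FB1 in WT, 3, 0 and 5 for FB1 in KO, 0, 0 and 1 for KO against WT without FB1, 0, 0 and 4 with FB1, and 0, 0 and 0 for the difference. Over all genes the slides called 7, 33 and 0, then 1971, 305 and 4905, then 724, 424 and 885, then 1615, 705 and 4162, and 6, 3 and 1083, in that order of comparisons. Fewer mice enter each such fit; no other cause of these changes was tested. Replicate numbers are shared by the groups, but same-numbered mice did not deviate together: of 36 pairs the correlation lay between -0.2 and 0.24, above 0.1 in 5, and 2 of 24 arrays correlated best with their own number. With replicate number as a block, 2, 7, 0, 5 and 2 of the 10 genes were called in that order, and 552, 8912, 3190, 6994 and 1898 of all genes. Cdkn1b under KO against WT with FB1 was called without KO FB1 replicate 4 (0.35, adjusted p = 0.0387), and Cdk4 with the mean of its probes (0.18, adjusted p = 0.0225).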
